A study of Rattus norvegicus with 24 samples.

Results

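The genes of the ciliary axoneme were followed in rat lung exposed to whole-cigarette smoke condensate (WCSC), the condensed smoke of burnt cigarettes. They were taken as every gene whose symbol is Foxj1 or Tppp3 or starts with Dnah, Dnai, Cfap, Rsph, Tekt or Drc followed by a number, which gave 20 of the 16881 symbols in the count files. The study measured RNA in 24 lung samples of wild-type rats, in 8 groups of 3. At 6 days and again at 12 days there was a control group and groups given 5, 10 and 20 mg/mL WCSC by repeated exposure. The strain, age and sex of the rats, the route of exposure and what the controls received are not stated in the labels. The labels also do not say whether the 3 samples of a group came from separate animals, so all p-values measure the spread between these samples, which may in part be technical.

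Motile cilia are beating hairs on the ciliated cells of the airway lining, where they sweep mucus out of the lung. Their core, the axoneme, is a ring of doublet microtubules around a central pair, and dynein arms on each doublet pull on the next to bend the cilium. FOXJ1 is the transcription factor that switches on the genes of motile cilia. Cigarette smoke is known to harm the ciliated lining of the airways.

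Of the 20 genes, 19 passed the filter on low counts and were tested among 11421 genes. Rsph6a, a radial spoke gene used mainly in testis, had 0 reads in all 24 libraries, and 3 reads in the 1.71e+08 reads of the series would be 0.0175 CPM (read counts scaled to a common library size), a limit that covers counting error only. The other members are parts of several machines of the axoneme. Dnah1 encodes an inner-arm dynein heavy chain, and Dnai1 and Dnai2 encode intermediate chains of the outer dynein arm. Drc1 and Drc7 belong to the nexin-dynein regulatory complex, which links neighbouring doublets. Rsph1, Rsph9 and Rsph10b encode radial spoke proteins. Tekt1 to Tekt5 encode tektins, filament proteins of the doublet wall, and Cfap20, Cfap52 and Cfap126 encode other proteins bound to the doublets. Tppp3 encodes a tubulin-binding protein that is abundant in ciliated cells and also present in other cells. Two-sided edgeR tests placed 0 of the 19 past an adjusted p of 0.05 in any comparison (0 in DESeq2 and limma voom as well), and the counts at an unadjusted p under 0.05 in edgeR were 0 to 2. Of all genes tested, edgeR placed 0% to 0.00876% past the adjusted threshold, depending on the comparison, and 1.25% to 4.86% past the unadjusted one. A count of 0 is thus not particular to axoneme genes.

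The promoters of 4 genes are printed here because their letters can be set beside the way the genes moved across libraries, described further on. Drc1, Dnai1 and Rsph10b followed Foxj1 from library to library and Tekt2 did not. The sequences come from the RefSeq promoter table of build GRCr8, which held 15 of the 20 members, and cover the 250 bases before the start, read 5′ to 3′ on the gene's strand. Drc1 lies at chr6:31779257-31779506 on the minus strand, Dnai1 at chr5:61525829-61526078 on the plus strand, Tekt2 at chr5:143907725-143907974 on the minus strand and Rsph10b at chr12:15788828-15789077 on the minus strand. Capitals mark a match to GTTGCC, an arm of the X-box bound by RFX factors, on either strand, which here reads GGCAAC.
Drc1: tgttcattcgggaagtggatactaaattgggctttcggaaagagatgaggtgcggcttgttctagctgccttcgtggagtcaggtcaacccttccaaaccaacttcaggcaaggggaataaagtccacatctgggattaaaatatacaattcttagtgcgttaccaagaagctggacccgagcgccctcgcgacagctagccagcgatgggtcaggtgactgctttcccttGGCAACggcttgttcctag
Dnai1: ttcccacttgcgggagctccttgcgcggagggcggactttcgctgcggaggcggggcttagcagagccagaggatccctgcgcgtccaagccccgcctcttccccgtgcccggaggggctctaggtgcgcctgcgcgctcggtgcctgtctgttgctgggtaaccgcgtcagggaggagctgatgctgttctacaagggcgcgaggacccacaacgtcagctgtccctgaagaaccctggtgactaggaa
Tekt2: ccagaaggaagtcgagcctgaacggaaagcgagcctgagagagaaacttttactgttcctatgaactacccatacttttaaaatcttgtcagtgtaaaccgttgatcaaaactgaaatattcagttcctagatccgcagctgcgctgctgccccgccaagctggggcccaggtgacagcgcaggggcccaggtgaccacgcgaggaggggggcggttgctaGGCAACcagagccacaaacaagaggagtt
Rsph10b: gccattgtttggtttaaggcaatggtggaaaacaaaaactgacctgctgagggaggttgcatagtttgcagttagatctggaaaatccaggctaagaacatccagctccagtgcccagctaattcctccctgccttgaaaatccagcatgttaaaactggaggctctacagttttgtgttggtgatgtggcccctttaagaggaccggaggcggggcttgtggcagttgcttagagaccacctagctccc
The match ended 14 bases before the start in Drc1, 24 bases before it in Tekt2, and Dnai1 and Rsph10b had none. GTTGCC was found in 5 of the 15 promoters (33.3%), those of Cfap20, Dnai2, Drc1, Tekt1 and Tekt2, against 9.89% of all 33469 promoters in the table. The full X-box, in which a pair of such arms face each other, was searched only as a fixed pattern with a spacer of set length. This pattern was in 0 of the 15, against 0.37% of all. Facing arms with other letters or another spacing were not searched, so a full X-box of another form may be present in these promoters. The forkhead core GTAAACA, searched on both strands, was in 2 of the 15 (13.3%), Cfap20 and Tekt3, against 3.22% of all. The exact GTTGCC match was thus present or absent among genes that followed Foxj1, and present in Tekt2, which did not follow it. Arms with other letters were not searched, so a promoter without this match may still hold an X-box arm.

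Foxj1 differed widely between libraries of the same group. At day 6 it was at 0.51, 9.08 and 13.8 CPM in the controls, 5.89, 12.3 and 15.1 CPM at 5 mg/mL, 1.79, 4.72 and 11.5 CPM at 10 mg/mL, and 12.2, 0.121 and 28.6 CPM at 20 mg/mL. At day 12 it was at 0.202, 17.3 and 7.22 CPM in the controls, 7.78, 4.07 and 3.86 CPM at 5 mg/mL, 12.6, 2.34 and 1.63 CPM at 10 mg/mL, and 12.5, 35.7 and 7.81 CPM at 20 mg/mL. Every exposed group overlapped its control, and 2 libraries, replicate 2 of 20 mg/mL at day 6 and replicate 1 of the day 12 controls, rested on 1 read each. The highest library of the series and the lowest were both from lungs given 20 mg/mL. In bulk lung, fewer ciliated cells and less Foxj1 RNA per cell cannot be told apart. Against its control, Foxj1 differed by 0.50 log2 (95% interval -1.82 to 2.83) at 5 mg/mL, -0.38 (-2.73 to 1.97) at 10 mg/mL and 0.81 (-1.52 to 3.13) at 20 mg/mL at day 6. The day 12 differences were -0.65 (-3.03 to 1.73), -0.58 (-2.95 to 1.80) and 1.16 (-1.18 to 3.51). All 6 intervals contain 0 and reach beyond a 2-fold change in both directions.

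**Figure D1:**
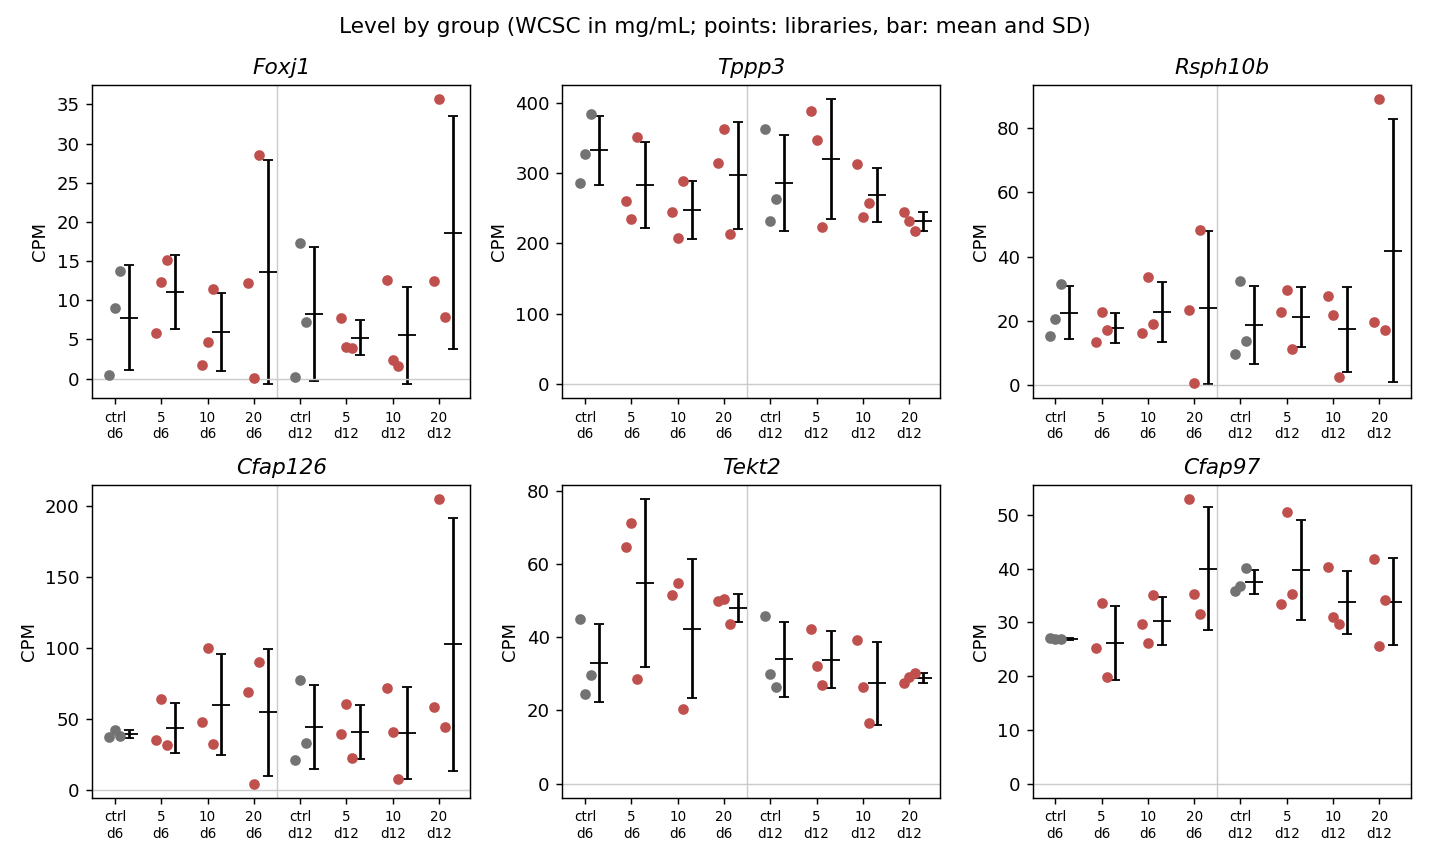
CPM of 6 axoneme genes in the 8 dose and day groups; points are libraries, and bars are the mean ± SD of 3 libraries. Foxj1, Rsph10b and Cfap126 spread widely within groups with the same 2 libraries of 20 mg/mL at the ends, whereas Tppp3 stayed between 207 and 388 CPM.

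Tppp3 behaved differently from Foxj1. It was at 286, 327 and 383 CPM in the day 6 controls and at 315, 362 and 213 CPM at 20 mg/mL on that day, and at 363, 232 and 262 CPM in the day 12 controls and 244, 232 and 217 CPM at 20 mg/mL. Its group means ran from 231 ± 13.5 CPM (SD, n = 3) at 20 mg/mL, day 12, to 332 ± 48.7 CPM in the day 6 controls, and the groups compared overlapped. The log2 differences from control were -0.23, -0.43 and -0.16 for 5, 10 and 20 mg/mL at day 6 and 0.16, -0.09 and -0.31 at day 12, each with an SE of 0.24. Tppp3 supplied 51.6% of the 91777 reads on axoneme genes, so sums over the group follow this gene.

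The dynein genes were spread like Foxj1. Dnah1 was at 3.32, 8.13 and 8.59 CPM in the day 6 controls and 0.838, 4.35 and 2.1 CPM at 10 mg/mL, a difference of -1.45 log2 (SE 0.93, edgeR adjusted p = 0.989), with the groups overlapping. At 5 mg/mL of that day Dnah1 (-0.91, SE 0.92) and Dnai1 (-0.87, SE 0.87) had the most negative differences of the 19 genes. Dnai2 was at 1.01, 10.5 and 1.94 CPM in the day 12 controls and 3.83, 2 and 0.545 CPM at 10 mg/mL, a difference of -1.07 log2 (SE 0.91). None of these passed the test. At 20 mg/mL, day 12, replicate 2 held 27.0 CPM of Dnai1 where the other replicates held 6.93 and 5.98 CPM, and 22.6 CPM of Dnai2 where they held 7.52 and 4.76 CPM.

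Drc1 and Drc7 fell to 0 reads in replicate 2 of 20 mg/mL at day 6. Drc1 was at 6.5, 0 and 17.2 CPM in the 3 libraries of that group, against 0.51, 10.4 and 11.5 CPM in its controls. Drc7 was at 4.26, 0 and 12.2 CPM against 0, 7.45 and 5.35 CPM. The range of Drc1 within this group of 3 was nearly that of the whole series (0 to 17.3 CPM), and Drc7 reached 17.6 CPM elsewhere. At 10 mg/mL, day 12, Drc1 differed from its controls by -0.60 log2 (SE 1.11).

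Among the radial spoke genes, Rsph1 was lower at 10 mg/mL, day 6 (6.7, 11.1 and 10.2 CPM) than in the controls (13.6, 18 and 15.9 CPM), with no overlap. The difference of -0.76 log2 (SE 0.70) did not pass the test (edgeR adjusted p = 0.989), and 3.23% of all genes tested were lower without overlap in that comparison. At 20 mg/mL, day 12, Rsph1 stood at 15.2, 50.2 and 13.2 CPM against 2.63, 17.2 and 6.66 CPM in controls, overlapping through 1 control library. Its difference of 1.56 log2 (SE 0.72) was 0.68 without replicate 2 of the exposed group and 2.46 without replicate 2 of the controls. Rsph10b was at 15.4, 20.7 and 31.7 CPM in the day 6 controls and at 23.6, 0.845 and 48.2 CPM at 20 mg/mL of that day. It was at 9.7, 32.5 and 13.9 CPM in the day 12 controls and at 19.6, 89.0 and 17.2 CPM at 20 mg/mL. Rsph9 is barely measured here: it had 132 reads in all, 0 in 7 libraries, and passed the filter through 5 libraries in 4 groups, so its log2 differences of -0.56 (20 mg/mL, day 6), 1.31, 0.38 and 2.09 (5, 10 and 20 mg/mL, day 12) have SEs from 1.55 to 1.70. Rsph1 overlaps the gene Slc37a1 in the RefSeq annotation and the labels do not state whether counting used strand, so its reads may in part belong to that gene.

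The tektin genes split into 2 kinds by how they varied. Tekt1 and Tekt4 ranged widely: Tekt1 was at 15.2, 0.965 and 27.7 CPM at 20 mg/mL, day 6 (0.69 log2 against control, SE 0.73), and Tekt4 at 12.8, 0.603 and 22.5 CPM. Tekt2, Tekt3 and Tekt5 stayed within a narrower band. Tekt2 was at 44.9, 24.5 and 29.6 CPM in the day 6 controls and 64.8, 71.1 and 28.5 CPM at 5 mg/mL, a difference of 0.73 log2 (SE 0.36, edgeR adjusted p = 0.896), and at 51.5, 54.9 and 20.5 CPM at 10 mg/mL (0.36, SE 0.36). At 20 mg/mL it was at 49.9, 50.4 and 43.5 CPM at day 6 and 27.5, 29.1 and 30.1 CPM at day 12, where the controls were at 45.7, 29.97 and 26.4 CPM (-0.23, SE 0.37). Tekt3 was higher at 20 mg/mL, day 6 (11.4, 11.2 and 12.2 CPM) than in controls (9.18, 8.81 and 7.32 CPM) with no overlap, a difference of 0.46 log2 (SE 0.44, edgeR adjusted p = 1.00). Tekt5, a tektin known from sperm, was at 3.25, 7.72 and 3.32 CPM at 20 mg/mL, day 6, and 11.5, 4.34 and 4.64 CPM in controls (-0.51, SE 0.46).

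Many axoneme genes, Tekt2 and Tekt5 among them, differed with the number of genes detected in a library. Counted at equal depth, 8 libraries had 11465 to 11751 detected genes and the other 16 had 11938 to 12473. Tekt2 had a median of 50.9 CPM in those 8 libraries and 28.8 CPM in the 16, and Tekt5 had 7.44 and 4.80 CPM. Foxj1 went the other way, with 3.26 and 11.8 CPM, as did the genes that followed it across libraries, described further on. Their log2 ratio of medians, the 8 libraries to the 16, ran from -2.13 (Cfap52) to -0.03 (Cfap126), against 0.82 for Tekt2. Of the 8 libraries, 6 were from day 6. Without the 8, the Tekt2 difference was 0.064 log2 at 5 mg/mL, day 6, and -0.41 at 10 mg/mL, day 6, where 1 exposed library was left in each group and was assumed to vary like the others.

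Of the 4 Cfap genes, Cfap126 followed the pattern of Rsph10b, at 69.0, 4.47 and 90.1 CPM at 20 mg/mL, day 6, and 58.0, 205 and 44.3 CPM at 20 mg/mL, day 12. At 10 mg/mL, day 6, it was at 48.1, 100 and 32.1 CPM (0.62 log2 against control, SE 0.77). Cfap20 was higher at 5 mg/mL, day 6 (38.8, 45.3 and 54.8 CPM) than in controls (11.7, 22.1 and 19.1 CPM) with no overlap, which 4.19% of all genes tested also were. Its difference of 1.39 log2 (SE 0.72, edgeR adjusted p = 0.896) did not pass the test, and at day 12 the same dose gave -0.31 (SE 0.71). Cfap52 was at 2.38, 16.3 and 2.07 CPM at 20 mg/mL, day 12, and at 0.202, 3.07 and 0 CPM in controls, and reached the filter's level of 1.47 CPM in 13 libraries. Its log2 differences at day 12 were 0.95 (SE 1.19), 1.25 (SE 1.18) and 2.66 (SE 1.20) at 5, 10 and 20 mg/mL. Leaving out 1 library moved these to between 0.34 and 4.35, 0.63 and 4.65, and 1.03 and 6.06. The 20 mg/mL value was 1.03 without replicate 2 of that group, and the highest values came without replicate 2 of the controls, which left controls of 0.202 and 0 CPM.

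Cfap97 had nearly equal levels in the day 6 controls, 27.0, 26.8 and 26.9 CPM, and was at 53.0, 35.4 and 31.6 CPM at 20 mg/mL. The groups did not overlap, and the difference was 0.57 log2 (SE 0.24, 95% interval 0.07 to 1.07, edgeR unadjusted p = 0.0281, adjusted p = 1.00). At day 12 the controls were at 35.8, 36.8 and 40.1 CPM, all above the day 6 controls (4.72% of all genes were higher without overlap between the controls), and the 20 mg/mL lungs were at 41.8, 25.7 and 34.2 CPM. Cfap97 overlaps Snx25 in the RefSeq annotation, a gene not in the count files, and the strand setting bears on its reads too.

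**Figure D2:**
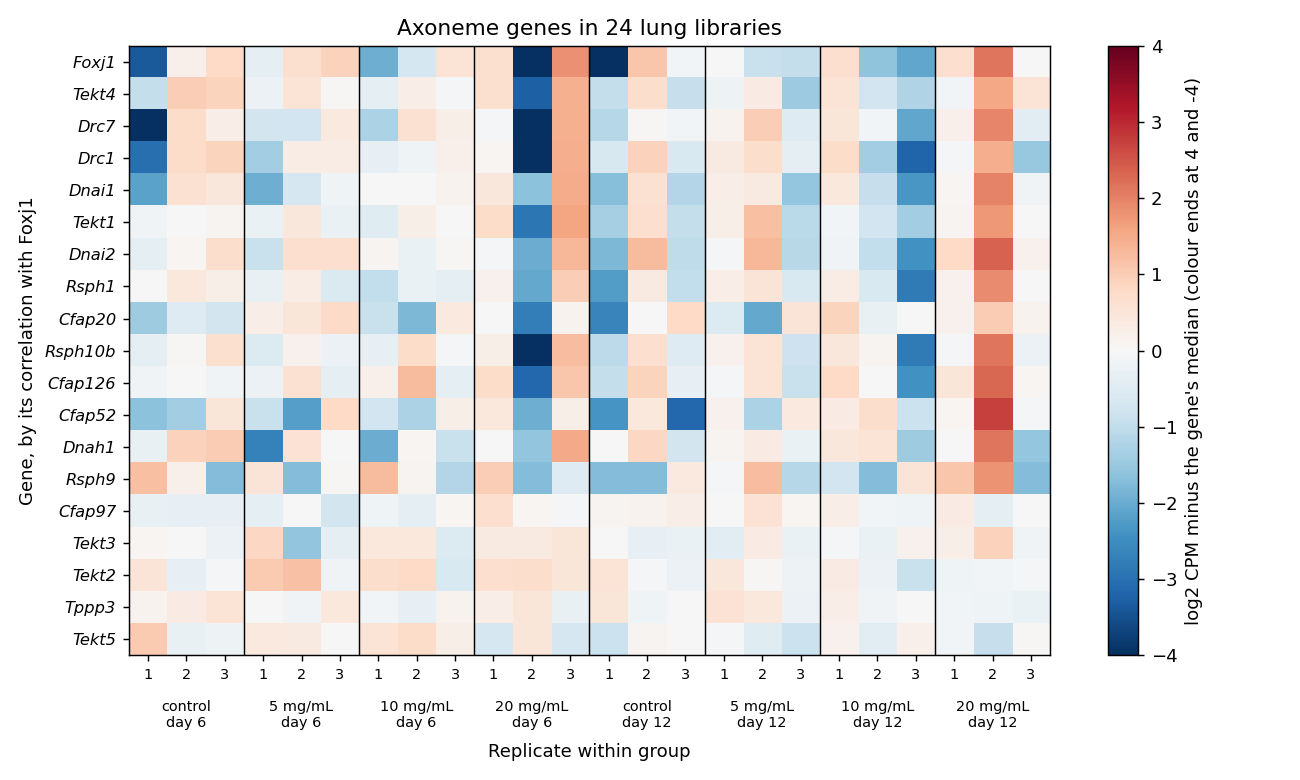
Heat map of log2 CPM minus each gene's median over the 24 libraries, for the 19 axoneme genes with reads (rows, ordered by correlation with Foxj1) and the 24 libraries (columns, by group); colours end at ±4. Replicate 2 of 20 mg/mL, day 12, is high and replicate 2 of 20 mg/mL, day 6, is low from Foxj1 down to Dnah1. Of the 6 lower rows, Rsph9 and Tekt3 are also highest in the first of these libraries, and Cfap97, Tekt2, Tppp3 and Tekt5 are not.

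Whole libraries were high or low across many axoneme genes at once. Replicate 2 of 20 mg/mL, day 12, ranked first of 24 in 15 of the 19 genes, with a mean of 4.81 log2 CPM over the 19. Replicate 2 of 20 mg/mL, day 6, was lowest, or tied for lowest, in 9 genes, with a mean of 1.42. Next highest were replicate 3 of 20 mg/mL, day 6, at 4.21 and replicate 2 of the day 12 controls at 3.75, and next lowest were replicate 3 of 10 mg/mL, day 12, at 2.08 and replicate 1 of the day 12 controls at 2.23. High and low libraries thus stood side by side in the same groups. Group means of this library mean ran from 2.92 ± 0.824 (10 mg/mL, day 12) to 3.86 ± 0.858 (20 mg/mL, day 12; SD, n = 3), and the pooled SD within groups was 0.778. For 15 of the 19 genes the SD within groups was at least as large as the SD over all 24 libraries. The share of all genes tested with this trait was not computed, so the count does not set axoneme genes apart. The median SD of an axoneme gene was 1.12 log2 CPM, against 0.42 for all genes tested, and 95.4% of all genes tested had a smaller SD than that.

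The libraries at the ends also stood apart in genes of other airway and tissue types. Over 10 club and goblet cell genes, such as the secretoglobin Scgb1a1, the mean was 8.94 log2 CPM in replicate 2 of 20 mg/mL, day 12, and 3.67 in replicate 2 of 20 mg/mL, day 6, the highest and lowest of the series (median 6.00). Over 9 heart muscle genes the first of these had 7.95, against 3.84 in replicate 3 of 20 mg/mL, day 6, 3.57 in replicate 2 of the day 12 controls and a median of 0.87. Myh6, the cardiac myosin heavy chain, was at 495 CPM in the first library, and its median over the series was 0. Of the 15 heart muscle genes in the files, 9 had 0 reads in over 12 libraries. The 9 alveolar type II genes had their lowest mean, 8.52, in replicate 2 of 20 mg/mL, day 12, and stood at 9.88 in replicate 2 of 20 mg/mL, day 6. The part of these tissue differences in the axoneme values was not tested, and medians are given with and without the 3 libraries highest in heart muscle genes. These 3 also had the 3 highest axoneme means (4.81, 4.21 and 3.75 log2 CPM). Leaving them out thus removes the highest axoneme values whatever the tissue content, and cannot tell the 2 apart.

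**Figure D3:**
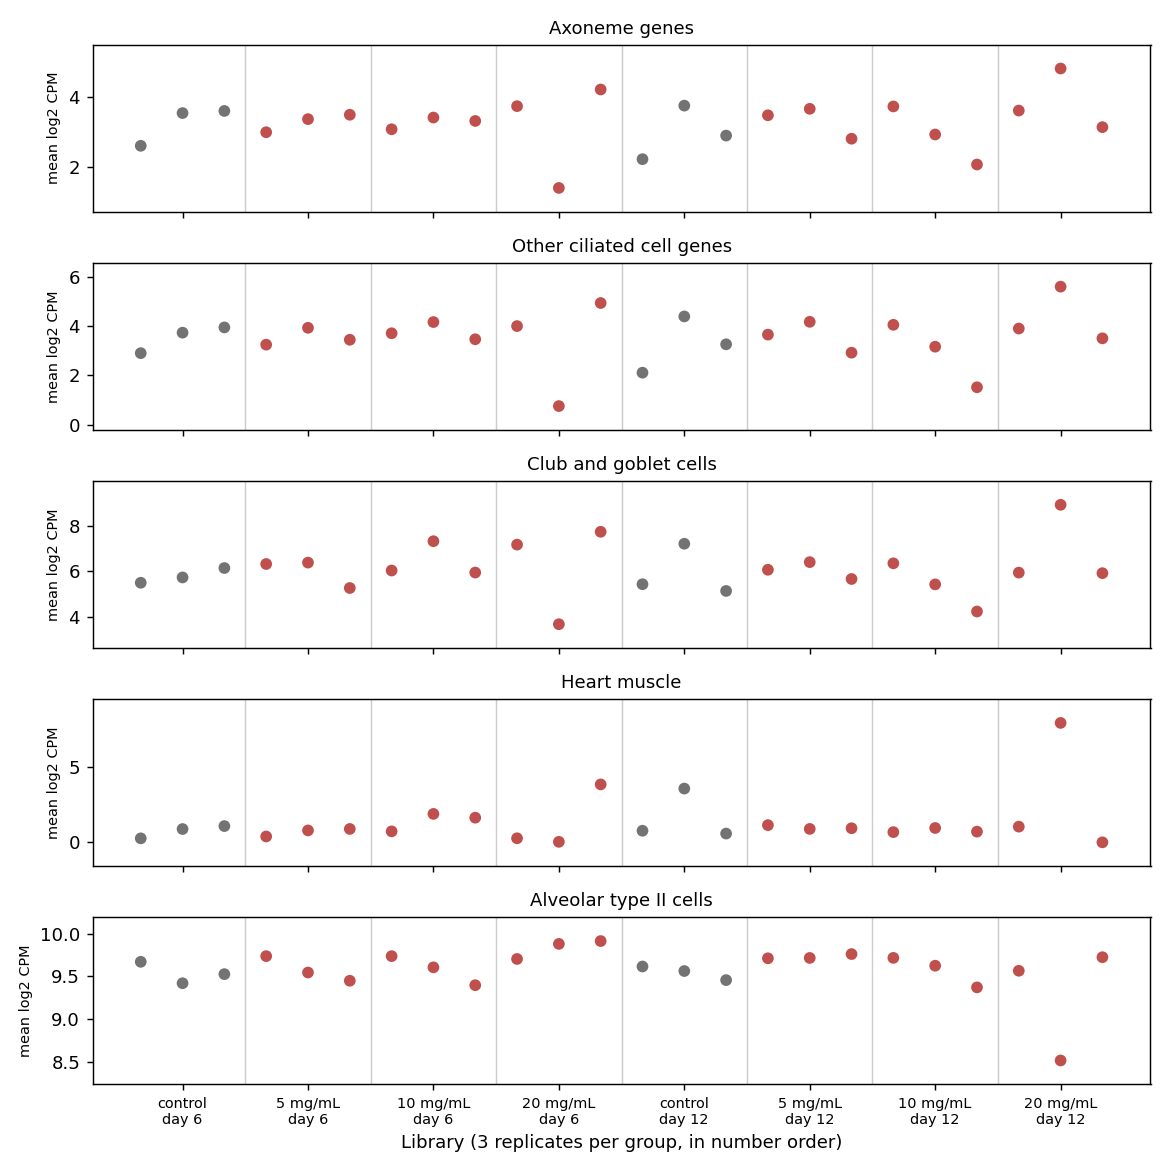
Mean log2 CPM per library of 5 gene lists (axoneme, other ciliated cell, club and goblet, heart muscle and alveolar type II genes), with 1 point per library in the 8 groups. The axoneme, other ciliated, and club and goblet lists all have their highest mean in replicate 2 of 20 mg/mL, day 12, and their lowest in replicate 2 of 20 mg/mL, day 6.

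Across the 24 libraries, 12 of the 18 other genes correlated with Foxj1 in log2 CPM, with adjusted p under 0.05 in both Pearson's and Spearman's form by permutation over 100000 resamplings. The share of all genes tested that would pass was not computed, so this count does not set axoneme genes apart from others. Tekt4 was nearest, with r = 0.83 and rho = 0.84, each with a permutation p of 1e-05 over 24 libraries, the smallest these can give (adjusted 6e-05 and 9e-05). Drc7 (r = 0.82), Drc1 (0.80), Dnai1 (0.77), Tekt1 (0.77), Dnai2 (0.76), Rsph1 (0.76), Cfap20 (0.75), Rsph10b (0.74), Cfap126 (0.70), Cfap52 (0.59) and Dnah1 (0.51) followed. Leaving out the 2 libraries farthest from the median of Foxj1, which were the 2 with 1 read, gave r from 0.47 (Cfap52) to 0.81 (Drc1) for the 12. Within day 6 the r of these genes ran from 0.56 to 0.93, and within day 12 from 0.46 to 0.84. The permutations exchanged all 24 libraries freely, without regard to group or day. With each group's mean removed, r of the 12 genes ran from 0.61 (Cfap52) to 0.87 (Drc1). Without the 3 libraries high in heart muscle genes, r ran from 0.33 (Dnah1) to 0.78 (Drc7). These genes share libraries, depth and tissue content with Foxj1, so the values describe how the libraries differ.

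The other 6 genes did not correlate with Foxj1 by these tests. Rsph9 had r = 0.12, Cfap97 -0.03, Tekt3 -0.10, Tekt2 -0.18, Tppp3 -0.25 and Tekt5 -0.29, with adjusted permutation p from 0.225 to 0.895 for the Pearson form. Tekt5 had r = -0.72 within day 6 and 0.24 within day 12. Leaving aside the sparse Rsph9, the SD of these genes between libraries was 0.29 to 0.53 log2, against 1.00 to 1.72 log2 for Foxj1 and the 12 genes that followed it. The symbol rule thus joined genes of 2 patterns, a division made after the values were seen. The part of the number of detected genes in this division was not tested.

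**Figure D4:**
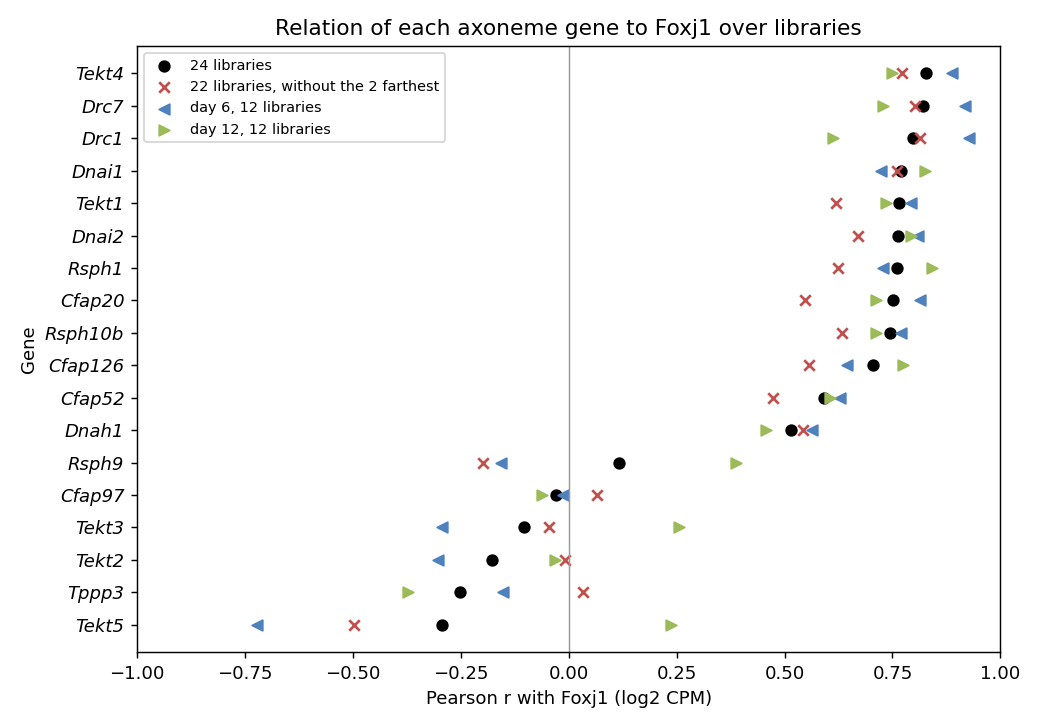
Pearson's r with Foxj1 in log2 CPM for 18 axoneme genes, over 24 libraries, over 22 libraries (without the 2 farthest in Foxj1), within day 6 and within day 12. The upper 12 genes have positive values throughout (0.46 to 0.93), and the lower 6 lie near or below 0 over 24 libraries.

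The dose comparisons at day 6 gave no axoneme gene past an adjusted p of 0.05 in edgeR, where 0% of all genes passed at any of the 3 doses. DESeq2 also called 0 of the 19 at 5, 10 and 20 mg/mL (0.0175%, 0% and 0.0263% of all genes), and so did limma voom (0%, 0.0438% and 0.0175%). At an unadjusted p under 0.05, edgeR had 0 of 19 at 5 mg/mL (4.71% of all genes), 0 at 10 mg/mL (2.7%) and 1 at 20 mg/mL (4.06%), Cfap97. DESeq2 had 0, 0 and 1 (5.61%, 3.14% and 4.75% of all genes), and limma voom 2, 3 and 3 of 19 (19.7%, 25.9% and 11.3%). The median log2 fold change of the 19 genes was -0.05, 0.02 and 0.37 for the 3 doses, with 7, 10 and 13 genes above 0 (49.2%, 50.1% and 49.6% of all genes), and the median of all genes tested was within 0.01 of 0 each time. Without the 3 libraries high in heart muscle genes the medians were -0.05, 0.01 and -0.29, so the value at 20 mg/mL changed sign when replicate 3, the 1 day 6 library among them, was left out. With limma voom sample weights it was -0.74. At 20 mg/mL, 2 genes were higher without overlap (Tekt3 and Cfap97, against 4.08% of all genes) and 0 lower (4.67%). At 5 mg/mL 1 gene, Cfap20, was higher and 0 lower (4.13%), and at 10 mg/mL 1 gene, Rsph1, was lower and 0 higher (2.99%).

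At day 12, edgeR again called 0 of the 19 (0% of all genes at each dose). DESeq2 called 0 at 5, 10 and 20 mg/mL (0.00876%, 0.00876% and 0.035% of all genes), and so did limma voom (0%, 0% and 0.0175%). At an unadjusted p under 0.05 edgeR had 0 at 5 mg/mL (1.25% of all genes), 0 at 10 mg/mL (2.09%) and 2 at 20 mg/mL (3.69%). These were Cfap52 (edgeR unadjusted p = 0.0370) and Rsph1 (edgeR unadjusted p = 0.0397), both with an adjusted p of 0.998. DESeq2 had 0, 0 and 2 (1.59%, 2.5% and 4.26% of all genes), and limma voom 1, 1 and 1 (5.93%, 5.25% and 4.53%). The medians were 0.16, -0.10 and 1.13 log2 with 12, 7 and 15 genes above 0 (49.8%, 51.1% and 51.3% of all genes). Of the 19 genes, 14 had their highest group mean at 20 mg/mL, day 12, a count whose share over all genes was not computed. Each of these 14 had its highest single library in replicate 2 of that group. Without replicate 2 of that group, the library high in heart muscle and airway genes, the median of 1.13 came to 0.25. Without all 3 such libraries the medians were 0.71, 0.48 and 0.64. Of these libraries, only replicate 2 of the controls, the highest day 12 control, enters the comparisons at 5 and 10 mg/mL. Leaving out that control alone gave 0.71 and 0.47 at these doses. No gene was separated from its control without overlap at any dose. Of all genes tested, 3.85% were higher and 3.94% lower without overlap at 5 mg/mL, 3.91% and 4.55% at 10 mg/mL, and 3.56% and 4.11% at 20 mg/mL.

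**Figure D5:**
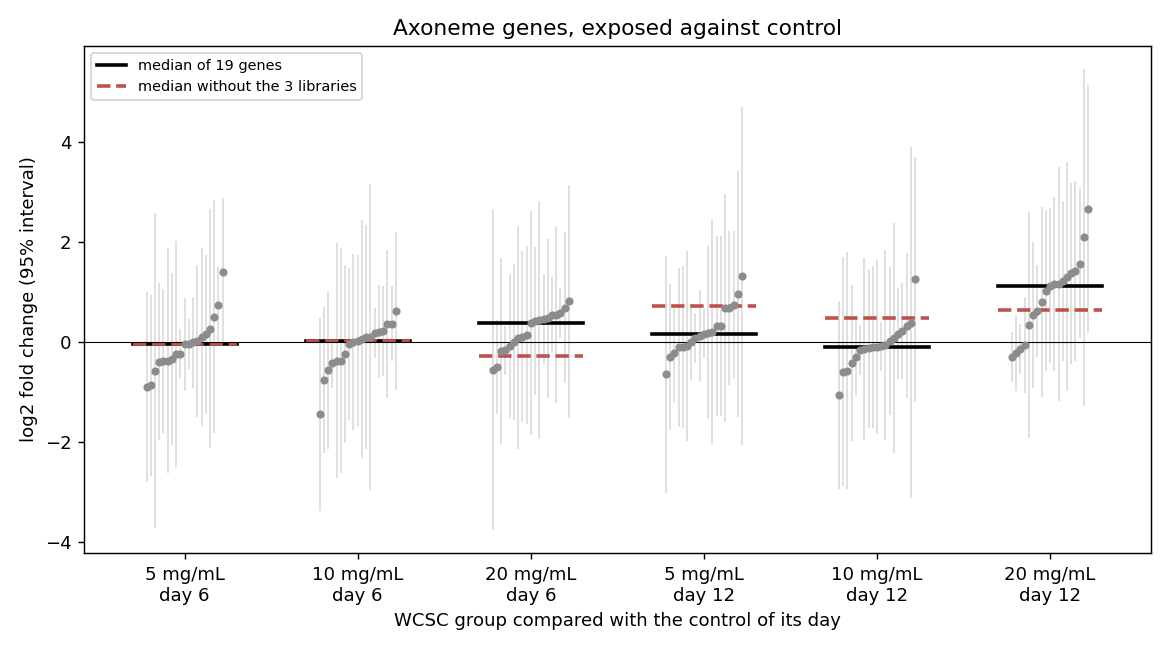
Log2 fold change against control of the same day with 95% intervals from edgeR for the 19 axoneme genes in 6 comparisons; the black line is the median of the 19 genes and the red dashed line their median without 3 libraries. The black line is farthest from 0 at 20 mg/mL, day 12 (1.13), and the red dashed line there is at 0.64.

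Over dose, the median slope was 0.11 log2 per 10 mg/mL at day 6 and 0.54 at day 12, with 13 and 16 of 19 slopes above 0 (49.6% and 51.6% of all genes). At the 2 days edgeR called 0 of the 19 (0.00876% and 0% of all genes), as did DESeq2 (0.0613% and 0.0963%) and limma voom (0.0175% and 0.0263%). The slope passed an unadjusted p of 0.05 in edgeR for Cfap97 at day 6 (0.31, 4.86% of all genes passed) and Cfap52 at day 12 (1.28, 4.36%), in DESeq2 for 1 and 2 genes (5.46% and 4.91%), and in limma voom for 1 and 1 (7.75% and 4.59%). Without the 3 libraries the median slopes were -0.13 and 0.22. Day 12 controls against day 6 controls had a median of -0.27 (-0.93 without the 3 libraries) and 5 genes above 0 (47.9% of all genes), with 0 of 19 called by any of the 3 tools (0% of all genes in each) and 0, 0 and 3 at an unadjusted p under 0.05 in edgeR (2.46% of all genes), DESeq2 (2.95%) and limma voom (13.8%). The difference between days in the response to 20 mg/mL, day 12 less day 6, had a median of 0.74 (1.25 without the 3 libraries, -0.17 without replicate 2 of 20 mg/mL, day 12) and 16 genes above 0 (51.6%), with 0 called by any tool (0% of all genes in each). Unadjusted, Cfap97 alone passed in edgeR (-0.72, 3.81% of all genes), 1 gene passed in DESeq2 (4.45%) and 3 in limma voom (5.95%).

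Genes that work with the axoneme but lie outside the symbol rule gave the same count of 0 called in edgeR in these comparisons (0.00876% of all genes in the day 6 slope and 0% in the others). Of all genes tested, 49.6% were above 0 at 20 mg/mL, day 6, and 51.3% at 20 mg/mL, day 12. Of 13 dynein assembly factors tested, which fold and pre-assemble the arms, 8 were above 0 at 20 mg/mL, day 6 (median 0.07 log2) and 13 at day 12 (0.50). Zmynd10 ranged from 3.98 to 88.2 CPM, whereas Ruvbl2, a chaperone subunit used in all cells, ranged from 57.6 to 105 CPM. The 5 docking and ruler genes, among them Ccdc39 and Ccdc40, which set the spacing of the arms, had medians of 0.29 and 0.70, and the 4 central apparatus genes tested, such as Spag6, had -0.29 and 0.34. The 23 intraflagellar transport genes, which carry cargo along all cilia, had 0.14 and 0.27, with 14 and 21 above 0, and the 8 dynein light chains and tubulins had 0.19 and 0.12. The 6 genes of the multiciliated cell programme, such as Rfx2, had -0.12 and 0.06. The 11 other ciliated cell genes, among them Tspan1, Mns1 and Lrrc23, had 0.27 and 1.05, with 9 and 11 above 0. At the lower doses the medians of these 7 lists lay between -0.64 and 0.28. At 10 mg/mL, day 12, 10 of the 11 other ciliated cell genes were below 0 (median -0.35), where 51.1% of all genes were above 0. These other ciliated cell genes had their highest library mean (5.61 log2 CPM) and their lowest (0.75) in the same 2 libraries of 20 mg/mL as the axoneme genes, and the 10 club and goblet genes had medians of 0.22 and 0.92 in the same comparisons. The dynein assembly (4.30), central apparatus (4.72) and intraflagellar transport (4.97) lists also peaked in replicate 2 of 20 mg/mL, day 12. The docking, light chain and multiciliated programme lists peaked in other libraries. List medians without that replicate are not given here, so the day 12 list values share its weight.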

How the data were processed

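RNA was measured in 24 rat lung samples. Trizol extraction and a Lexogen QuantSeq library kit were used, per the labels' protocols. Bowtie2, bedtools and the build rn6 are named in the submitters' processing notes, while no source used here gives their versions, the annotation, read filters or strand use. The authors deposited raw counts of reads for each gene symbol, with 1 file for each sample, and totals ran from 4.80e+06 to 1.11e+07 (median 6.84e+06).

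Of 17048 lines, 167 repeated a symbol. The line with the most counts was kept, and the lines left out held 0.772% of counts. Genes kept by filterByExpr (minimum count 10, or 1.47 CPM at the median depth, in 3 libraries) numbered 11421. Counts were scaled by TMM (0.804 to 1.12) and fitted by the quasi-likelihood method of edgeR 4.0.16 (R 4.3.3) in 1 model of 8 group means with 16 residual degrees of freedom. Biological variation between samples was a coefficient of 0.335. Tests were two-sided, with Benjamini-Hochberg adjustment over all genes tested and a threshold of 0.05. CPM are TMM-scaled, and log2 CPM used a prior count of 2. Slopes are per 10 mg/mL. The kit and counting leave any dependence on gene length unknown, so levels were not compared between genes.

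The members and all gene lists were chosen with earlier results of these data known. Named were Foxj1, Tppp3, the 3 most abundant members of each symbol family, and in each dose comparison every called member and the 2 most positive and 2 most negative. Members past an unadjusted p of 0.05 or without overlap were named after their values were seen. Promoters were to be those of Foxj1, which the table does not hold, and of the most abundant listed member of each family, of which 4 of 6 are printed. Alternatives were RLE size factors, no filter beyond 1 read, DESeq2 1.42.0, limma 3.58.1 voom with sample quality weights, only the groups compared, a replicate block, a prior count of 0.5, each sample left out in turn, and 3 libraries left out. Leaving out the 8 libraries with the fewest detected genes (counts thinned to 4758010 reads) was added after seeing the data. The scripts were tested on simulated data.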

Additional observations from a re-analysis of the deposited data

Results flagged for a closer look

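Tekt2, a tektin of the doublet wall, stood on opposite sides of its control mean at the 2 times in lungs given 20 mg/mL. The 3 day 6 libraries were 0.64, 0.65 and 0.44 above the mean of their controls in log2 CPM, and the 3 day 12 libraries differed from theirs by -0.26, -0.18 and -0.13. The mean difference at day 12 minus that at day 6 was -0.77 log2. All 3 samples lying above the control mean at day 6 and below it at day 12 drew attention to it, which is not itself a test. The groups overlapped at both times. At day 12 the exposed libraries were at 27.5 to 30.1 CPM, within the control range of 26.4 to 45.7 CPM. Without replicate 1 of the day 12 controls, the edgeR difference at day 12 was 0.040 log2. The edgeR term for the difference between days was also -0.77 (SE 0.52, adjusted p = 1.00). Tekt2 was higher in libraries with few detected genes (median 50.9 against 28.8 CPM), and the part of this in the difference was not tested.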

How the results depend on the processing

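The count of 0 axoneme genes called in edgeR held in all 10 comparisons under every alternative run. Moves of a median by more than 0.778, the pooled SD within groups of the library mean, or for slopes by more than this divided by 2, came from 2 kinds of alternative, and moves under the others, the 3 libraries left out included, were smaller. With limma voom sample weights, the median at 20 mg/mL, day 6 was -0.74 (0.37 in edgeR) and the day 6 slope -0.35 (0.11). With each sample left out in turn, the median at 20 mg/mL, day 12 ran from 0.25 to 1.57, the day 12 slope from 0.12 to 0.69 and the difference between days from -0.17 to 1.61. The cause was not tested.

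Single genes changed sign as follows, with no value past the threshold before or after. Under voom weights, at 20 mg/mL, day 6 Foxj1 came to -1.77 and Tekt1 to -0.76, and at 10 mg/mL, day 12 Tppp3 to 0.056 and Rsph9 to -0.33. Without the 3 libraries, at 20 mg/mL, day 6 Foxj1 came to -0.39, Tppp3 to 0.026 and Tekt1 to -0.20, Foxj1 at 5 mg/mL, day 12 to 0.45, and at 10 mg/mL, day 12 Foxj1 came to 0.53, Dnai2 to 0.49, Drc1 to 0.16 and Rsph9 to -0.14. With the 8 libraries poorest in detected genes left out, at 10 mg/mL, day 6 Foxj1 came to 0.0021, Tekt2 to -0.41 and Cfap126 to -0.33, Rsph9 at 20 mg/mL, day 6 to 1.17, at 10 mg/mL, day 12 Tppp3 to 0.13 and Rsph9 to -0.11, and Tekt2 at 20 mg/mL, day 12 to 0.015. Leaving out single samples also turned some signs, with ranges of the log2 fold change given by comparison. At 5 mg/mL, day 6 these were Foxj1 -0.052 to 1.20. At 10 mg/mL, day 6 these were Foxj1 -1.25 to 0.32. At 20 mg/mL, day 6 these were Foxj1 -0.39 to 1.51, Tppp3 -0.33 to 0.0266, Rsph9 -2.18 to 0.57, Tekt5 -1.05 to 0.0958 and Tekt1 -0.20 to 1.25. At 5 mg/mL, day 12 these were Foxj1 -1.21 to 0.45, Tppp3 -0.00534 to 0.37 and Cfap20 -1.09 to 0.42. At 10 mg/mL, day 12 these were Foxj1 -2.06 to 0.53, Tppp3 -0.22 to 0.12, Dnai2 -1.82 to 0.49, Drc1 -2.36 to 0.16 and Rsph9 -1.16 to 4.77. At 20 mg/mL, day 12 these were Tekt2 -0.38 to 0.0402.

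The main model did not pair samples by replicate number, and the labels do not say what the numbers stand for. Correlations of the samples' deviations at day 6 ran from -0.19 to 0.59 (median 0.17) for same-numbered samples. For differently numbered samples they ran from -0.52 to 0.38 (median -0.10), so same-numbered samples were more alike at day 6. At day 12 the ranges were -0.15 to 0.20 (median 0.022) and -0.27 to 0.21 (median -0.019). Of 24 libraries, 10 matched best with their own number. With the replicate block, 0 axoneme genes were called in each comparison, and the median at 20 mg/mL was 0.19 at day 6 and 0.93 at day 12. Depth limits Rsph9, Cfap52 and Rsph6a most.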
